A study of Mus musculus with 4 samples.

Results

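Clusters in autosomal lncRNA genes are stretches of RNA recovered with PTBP1 in mouse heart that lie in long noncoding RNA (lncRNA) genes and in no protein-coding gene. A cluster was taken when it lay on chromosomes 1 to 19 and its midpoint fell in the GRCm38 span of a gene annotated as lncRNA and in the span of no protein-coding gene. This gave 6822 of 376266 clusters (1.81%) in replicate 1 and 6911 of 388894 (1.78%) in replicate 2. They lay in 1245 of 12408 autosomal lncRNA genes, of which 900 had a cluster in both replicates. Of the clusters, 352 in replicate 1 and 350 in replicate 2 lay in several lncRNA spans and were given to no single gene.

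The material was whole heart of WT C57BL/6 mice, whose age and sex the labels do not give, and there was no genotype or treatment contrast. The assay was eCLIP, in which ultraviolet light fixes RNA to the proteins bound to it, RNase shortens it, and an antibody, here against PTBP1, pulls down the bound pieces. There were 2 PTBP1 immunoprecipitates and 2 size-matched inputs, each input being a sample of the same lysate before the antibody step, and the comparison of the pair asks which RNAs were recovered with PTBP1 above their share in the lysate. The labels do not state whether the lysates were of separate animals, and differences between replicates may therefore be technical. Each fold and p-value given for a cluster was computed by the authors and is quoted from the authors' deposited tables; the read numbers behind it are unknown.

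PTBP1, polypyrimidine tract binding protein, binds pyrimidine-rich RNA such as runs of UCUU and CUCU, and is best known for repressing exons during splicing. Most of its sites lie in introns of pre-mRNA. lncRNAs encode no known protein, and many of them, but not all, are spliced and processed like mRNAs. Some act in the nucleus, some silence neighbouring genes in imprinted domains, and some serve as hosts from which miRNAs or snoRNAs are cut.

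Mir100hg, on the plus strand of chromosome 9, held the reproducible pair whose lower fold was the highest of all lncRNA pairs, and carries 3 miRNA genes. Mature sequences of these genes from RefSeq (GRCm38.p6) are shown because the clusters are located relative to the genes below. For let-7a-2 only the 3p sequence is shown, so the set is not complete. Capitals mark the seed, bases 2 to 8, and no seed is shared among the 5 shown.
mmu-miR-100-5p: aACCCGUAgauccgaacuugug
mmu-miR-100-3p: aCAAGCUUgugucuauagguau
mmu-let-7a-2-3p: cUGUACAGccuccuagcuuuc
mmu-miR-125b-5p: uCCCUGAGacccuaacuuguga
mmu-miR-125b-1-3p: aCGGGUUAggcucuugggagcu

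Sequence under the clusters themselves could be read only where both replicates' clusters lay wholly inside a RefSeq promoter window (250 bases before to 50 after a gene's start, GRCm38.p6), which held for 4 pairs, none of them enriched. The 3 longest are printed on the strand of the cluster, with capitals marking TCTT and CTCT, the DNA letters of the PTBP1 motifs, which were searched on that strand only.
A230083G16Rik, chr6:124919392-124919524, plus strand: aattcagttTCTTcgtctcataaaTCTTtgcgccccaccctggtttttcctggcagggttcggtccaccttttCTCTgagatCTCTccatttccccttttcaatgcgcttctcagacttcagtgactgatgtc
E230013L22Rik, chr8:11478794-11478842, plus strand: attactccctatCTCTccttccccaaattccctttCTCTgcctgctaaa
4732471J01Rik, chr7:25539990-25540089, plus strand: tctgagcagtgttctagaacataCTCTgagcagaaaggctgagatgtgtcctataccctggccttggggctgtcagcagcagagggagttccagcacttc
The A230083G16Rik cluster had the highest folds of these, 2.94 in replicate 1 and 2.62 in replicate 2 on the log2 scale. Its sequence was 68.4% C or T, against a median of 49.6% over promoter windows cut to that length, and it held TCTT 2 times and CTCT 2 times, motifs found in 41.5% and 51.7% of such windows. The E230013L22Rik cluster was also rich in pyrimidines, at 77.6% C or T, but its folds were 0.36 and -0.64. The 4732471J01Rik cluster, with 48% C or T, had folds of 0.04 and -0.38. Over all promoter windows, 35 clusters of replicate 1 and 26 of replicate 2 overlapped one and 0 of these were enriched, with highest folds of 2.94 and 2.62. Among all lncRNA clusters 3.81% and 2.85% were enriched, and among all clusters 6.31% and 4.71%. At such shares, few or none would be enriched among so small a number of clusters.

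Strong PTBP1 sites were a small minority of lncRNA clusters and made up a smaller share than among all clusters. A cluster was called enriched when the immunoprecipitate exceeded its input by a log2 fold of 3 or more and its −log10 p reached 3. In replicate 1, 260 lncRNA clusters were enriched, a share of 3.81% (95% Wilson interval 3.38 to 4.29), against 6.31% of all clusters and 6.39% of those in protein-coding spans alone. In replicate 2, 197 were enriched, 2.85% (2.48 to 3.27), against 4.71% of all clusters and 4.76% in protein-coding spans. The intervals cover counting of clusters only and treat them as independent, and no test across samples was made, because each replicate gives 1 value. The material was whole tissue, so fewer cells of a type and less RNA per cell cannot be told apart in any of these values.

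The median log2 fold was 0.36 in both replicates for lncRNA clusters, against 0.62 for all clusters. The middle 80% of lncRNA clusters lay between -0.96 and 2.36 in replicate 1, and between -0.97 and 2.20 in replicate 2. The lncRNA folds were below 0 for 32.6% of clusters in replicate 1 and 35.5% in replicate 2, against 27.1% and 28.5% of all clusters. The extremes were -6.21 and 7.34 in replicate 1 and -6.52 and 6.21 in replicate 2. Many folds repeat the same few values: the 20 commonest covered 69.3% of lncRNA clusters in replicate 1 and 68.8% in replicate 2, against 59.4% and 59.7% of all clusters. The share of enriched clusters moved with cluster length, being 0.694% below 50 nt and 11.0% at 100 nt or more in replicate 1, against 1.34% and 17.1% of all clusters in those classes. The lncRNA clusters were no shorter, with a median of 71 nt in replicate 1 and 68 nt in replicate 2, against 69 nt and 66 nt for all clusters.

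Enriched lncRNA sites recurred between lysates about as often as those elsewhere. Reproducible clusters are those that were enriched and shared at least 1 nt on the same strand with an enriched cluster of the other lysate. There were 162 such clusters in replicate 1, 2.37% of lncRNA clusters against 3.98% of all clusters, and 152 in replicate 2, 2.20% against 3.72%. They were 62.3% of the enriched lncRNA clusters in replicate 1 and 77.2% in replicate 2, against 63.0% and 78.8% of all enriched clusters. Without asking for enrichment, 52.7% and 52.0% of lncRNA clusters overlapped a cluster of the other replicate, against 56% and 54.4% of all. Across the 3595 overlapping pairs, each joined to the partner with most shared nucleotides, the folds had a Pearson correlation of 0.819 and a Spearman correlation of 0.750, a description of clusters that share the same libraries. The folds were above 0 in both replicates in 2485 pairs, below 0 in both in 493 and of opposite sign in 617. Replicate 1 exceeded replicate 2 by a median of 0.12 on the log2 scale, and it had the higher fold in 112 of the 162 reproducible pairs.

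**Figure D1:**
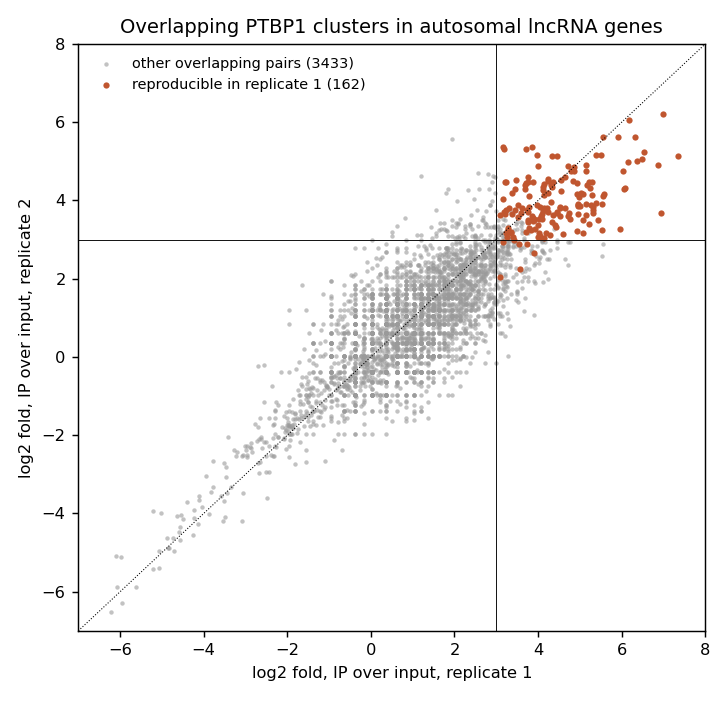
Log2 fold of immunoprecipitate over input in replicate 1 (x axis) and replicate 2 (y axis) for the 3595 overlapping pairs of lncRNA clusters, 1 point per pair, with reproducible clusters marked. Points spread along the diagonal with a Pearson correlation of 0.819, and a few marked points lie below 3 in replicate 2 because the partner sharing most nucleotides was not the enriched one.

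The reproducible sites were gathered in few genes. Of the 900 lncRNA genes with clusters in both replicates, 65 (7.22%) had a reproducible cluster, against 26.2% of the 12571 protein-coding genes counted the same way. The gap was narrower among genes with similar numbers of clusters. Among genes with 1 to 9 clusters it was 2.44% of lncRNA genes against 4.86% of protein-coding genes. With 10 to 49 clusters it was 33.3% against 33.8%, and with 50 or more it was 12 of 18 lncRNA genes (66.7%) against 80.9% of protein-coding genes. Several clusters of a gene can be neighbouring pieces of 1 site: the 162 reproducible clusters joined into 107 regions with a median of 198 nt and a longest of 429 nt. The 10 genes with most of them held 67 of the 162.

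Mir100hg, host of miR-100, let-7a-2 and miR-125b-1, held the reproducible pair with the highest lower fold. The gene spans chr9:41376526-41615185 and had 128 clusters in replicate 1 and 134 in replicate 2, with medians of 1.08 and 1.20. The top pair, at chr9:41584520-41584615 in replicate 1, had log2 folds of 6.99 (replicate 1) and 6.21 (replicate 2), with −log10 p of 47.0 and 26.7. The adjoining cluster from 41584616 to 41584793 had folds of 6.86 and 4.91, and its −log10 p of 171 in replicate 1 and 67.4 in replicate 2 were the highest of any lncRNA cluster. A second block of 5 joined clusters lay at 41589553 to 41589873. In all, 8 clusters of replicate 1 and 12 of replicate 2 were reproducible.

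The Mir100hg sites lay off the hairpins of its 3 miRNA genes. No cluster of either replicate overlapped any of the 3 hairpins. Distances were taken to the reproducible clusters of replicate 1. The hairpin of miR-125b-1, at chr9:41581926-41582002, was 2518 nt from the nearest of them, and a reproducible cluster of replicate 2 began nearer, at 41584447. The hairpins of let-7a-2 and miR-100 were 41413 nt and 46720 nt away from one that lies in the overlapping spans of Mir100hg and Gm51670.

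Mir99ahg, the related host gene named for miR-99a, on chromosome 16 from 77329328 to 77558428, had 92 and 105 clusters with medians of 1.21 and 0.70. In Mir99ahg alone the best reproducible pair had folds of 5.21 and 4.47, and 5 clusters of replicate 1 and 3 of replicate 2 were reproducible. A pair with higher folds, 5.51 and 5.17, lay at chr16:77399634-77399773, where the spans of Mir99ahg and 9430053O09Rik overlap, and was given to neither gene. Dleu2, from which miR-15a and miR-16-1 are processed, had 59 and 70 clusters, medians of 1.04 and 0.68, and a best pair of 5.30 and 3.83. Other miRNA hosts lacked such sites: Mir22hg had medians of -1.23 in both replicates over 7 and 3 clusters, and Mir17hg had 1.12 and 1.28 over 2 and 1. Of the 10 listed miRNA hosts with clusters in both replicates, these 3 (30%) had a reproducible cluster, beside 7.22% of all lncRNA genes. All 3 had 50 or more clusters in each replicate, a class in which 66.7% of lncRNA genes had one. The medians of the gene medians of the 10 hosts were 0.74 and 0.56, beside 0.36 and 0.12.

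Among the imprinted lncRNAs, Airn and Meg3 carried groups of reproducible clusters, Rian had 1 in each replicate, and Mirg, H19 and Snhg14 had 0 enriched clusters. Airn is the paternally expressed RNA that silences Igf2r in cis, and its span is chr17:12741311-12859884. Outside protein-coding spans it had 58 clusters in replicate 1 and 60 in replicate 2, and a further 46 and 42 that overlap Igf2r or Mas1 were not counted, 0 of which were enriched. Its medians were only 0.67 and 0.01, yet 10 clusters of replicate 1 and 7 of replicate 2 were reproducible. They fell mainly in 2 blocks, at 12808627 to 12808982 and at 12813120 to 12813517. The best cluster of the second block, 12813408 to 12813517, had folds of 5.58 and 4.17 with −log10 p of 50.1 and 28.3, and a single site at 12787391 to 12787472 had 4.15 and 4.14.

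Meg3, the maternally expressed lncRNA of the Dlk1-Dio3 domain and reported elsewhere as a PTBP1 partner, had high folds over the stretch where its clusters lay. It spans chr12:109540996-109571729 and had 15 clusters in replicate 1 and 16 in replicate 2, with medians of 2.45 and 2.80. The clusters of both replicates lay between 3.60 and 8.27 kb from the start of the Meg3 span. Of these, 6 were enriched in each replicate and 5 reproducible in each. The folds were above 0 in 10 of 15 clusters in replicate 1 and in 16 of 16 in replicate 2. Its best pair, at 109546499 to 109546548, had folds of 4.55 and 4.24, inside a joined block of 239 nt from 109546438 to 109546676.

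Rian and Mirg, transcribed downstream of Meg3, were lower. Rian had 27 and 33 clusters with medians of 0.04 and 0.36 and a reproducible site at chr12:109632452-109632620 with folds of 4.01 and 3.53. Mirg had 8 and 6 clusters with medians of 0.49 and 0.44. H19 had 7 and 9 clusters, all above 0, with medians of 0.98 and 1.43 but a maximum of 2.21 in replicate 1 and 1.97 in replicate 2. All 6 imprinted lncRNAs with clusters in both replicates had medians above 0 in both, the sixth being Snhg14 at 0.62 and 0.03. The same held for 465 of all 900 lncRNA genes. With its clusters in protein-coding spans counted as well, Airn had medians of 0.04 in replicate 1 and -0.38 in replicate 2. A reproducible cluster was present in 3 of the 6 (50%), beside 7.22% of all lncRNA genes. Airn, in the class of 50 or more clusters, and Meg3 and Rian, in that of 10 to 49, belong to classes in which 66.7% and 33.3% of lncRNA genes had one. Kcnq1ot1 could not be counted, because all its 119 and 114 clusters also lie in the span of Kcnq1, where none was enriched, and the same held for the 7 and 7 clusters of Peg13 in Trappc9. Besides Meg3 and H19, Gm30731, the neural lncRNA Pnky that is reported to bind PTBP1 in neural stem cells, had 1 cluster in each replicate, at -0.38 and 0.03.

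**Figure D2:**
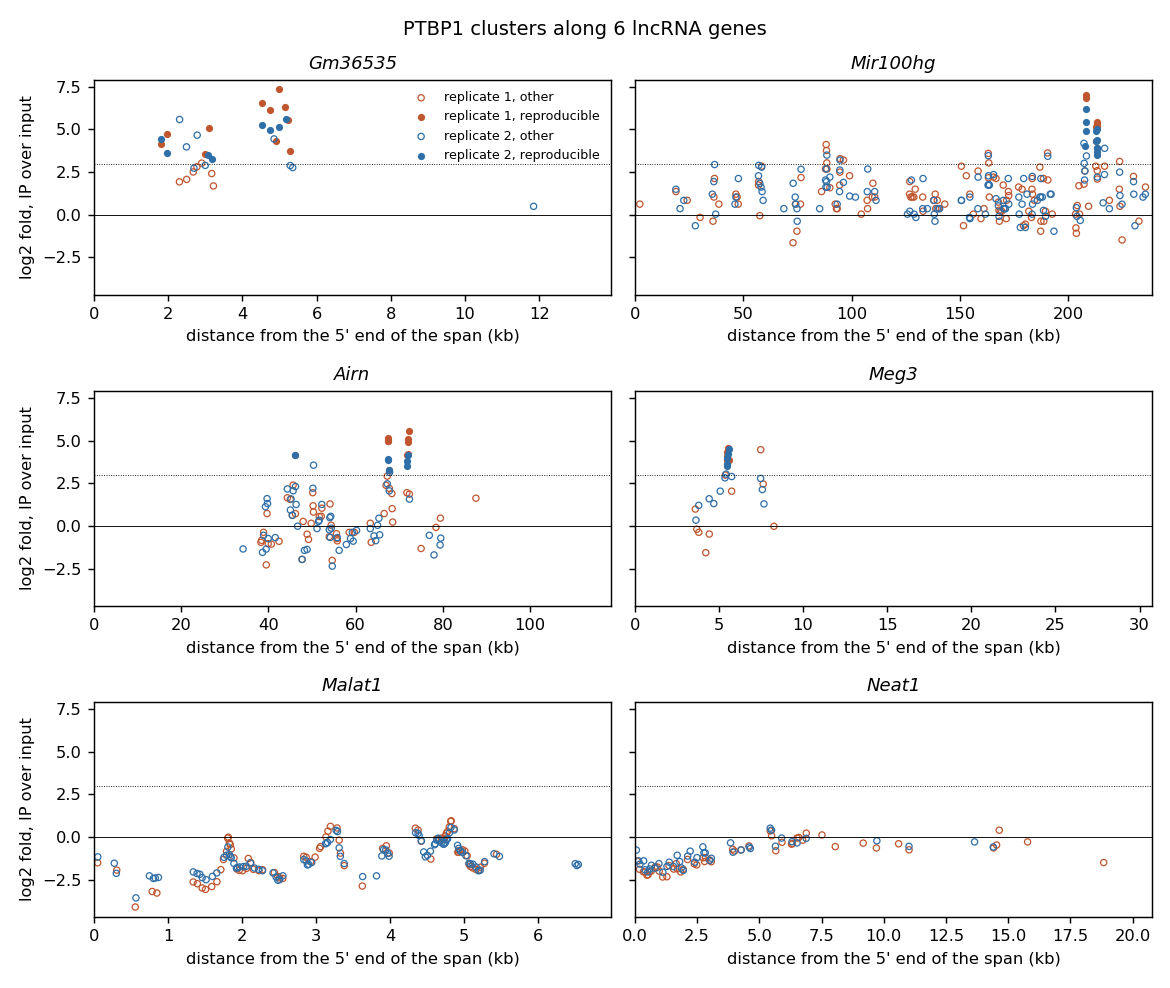
Log2 fold of each cluster (y axis) against its distance from the start of the gene span in kb (x axis) for 6 lncRNA genes, with replicate 1 and replicate 2 in separate colours, reproducible clusters filled and the dotted line at 3. Strong sites stand in short blocks in Mir100hg and Airn, while most Malat1 and Neat1 clusters lie below 0; the start of Airn is bare because clusters overlapping Igf2r are not counted.

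Among heart lncRNAs with known cardiac roles, Hand2os1 had reproducible sites, and Mhrt and Bvht had a cluster enriched in replicate 1 alone. Hand2os1, also called upperhand, lies beside the cardiac transcription factor gene Hand2 and is required for normal heart development in mouse. Of its 21 clusters in each replicate, 3 were reproducible in each, the best at chr8:57313297-57313472 with folds of 6.08 and 4.33 and −log10 p of 96.2 and 35.9. The gene ends 124 nt from the Hand2 span, and this cluster lies 7511 nt from it. Mhrt, an antisense partner of Myh7 that protects the heart from hypertrophy, had 13 and 17 clusters with medians of 1.01 and 0.33. Its one enriched cluster, chr14:54969075-54969171, had a fold of 3.22 in replicate 1 and 1.93 in replicate 2, with a −log10 p of 25.9 in replicate 1, so it passed the threshold in replicate 1 alone. Bvht, known as braveheart for its part in cardiac commitment of mouse stem cells, had 5 and 4 clusters with high medians of 2.36 and 2.20 and a best pair of 4.46 in replicate 1 and 2.98 in replicate 2, where it fell just short of the threshold. Fendrr, required for heart and body wall development, had medians of -0.17 in both replicates, and Carmn, a smooth muscle and cardiac lncRNA, had -0.20 and -0.38. Of 5 heart lncRNAs with clusters in both replicates, 1 (20%) had a reproducible cluster, beside 7.22% of all lncRNA genes. This gene, Hand2os1, is with Mhrt and Carmn in the class of 10 to 49 clusters, in which 33.3% of lncRNA genes had one.

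Of the 7 listed nuclear and widely expressed lncRNAs with clusters in both replicates, 4 had medians below 0 in both (Malat1, Neat1, Oip5os1 and Dancr), 2 above 0 in both (Pvt1 and Lncpint), and Tug1 differed between replicates. Over all 900 lncRNA genes, 182 had medians below 0 in both and 465 above 0 in both. Malat1, an RNA of nuclear speckles, had 82 clusters in replicate 1 and 96 in replicate 2, or 11.7 and 13.7 per kb, with medians of -1.12 and -1.20. Only 13 and 8 of these folds were above 0, the highest being 0.95 and 0.56, and none was enriched. Neat1, which builds paraspeckles, had 52 and 43 clusters with medians of -1.27 and -1.07. All Neat1 clusters lay on the minus strand, from which its start was taken, since the tables used here give the gene no strand. In the first 3500 nt of Neat1 the median was -1.87 in replicate 1 and -1.47 in replicate 2, and in the rest of the gene it was -0.39 and -0.34. Malat1 showed the same order, with -1.59 and -1.72 in its first 3500 nt and -0.71 and -0.83 in the rest. Clusters of Norad lay also in a second lncRNA span, Gm14170, and were given to neither gene; their medians were -1.23 and -1.47. Oip5os1 had 1 cluster in each replicate, at -1.80 and -1.42. Dancr, which also hosts a snoRNA, had 2 clusters in each replicate, with medians of -4.49 and -4.14. Tug1 stood at 0.62 and -0.17.

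Other lncRNAs with very many clusters had few strong sites. Pvt1, the neighbour of Myc, had 185 and 180 clusters with a median of 0.62 in both replicates and a maximum of 3.21 and 3.62, and no cluster was reproducible. Lncpint, a p53-induced RNA, had 211 and 215 clusters, medians of 0.33 and 0.11, and 1 reproducible site with folds of 4.00 and 3.07. D5Ertd615e had 93 and 88 clusters at a median of 0.36 in both, with 0 enriched. Morrbid, which controls survival of short-lived myeloid cells through Bcl2l11, had 119 and 123 clusters, of which 4 and 2 were enriched and 1 in each reproducible, with a best pair of 5.04 and 4.20.

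The snoRNA host genes formed the lowest group. Of the 17 listed hosts with clusters in both replicates, 14 had medians below 0 in both, against 182 of all 900 lncRNA genes. The medians of the 14 lay between -6.11 and -0.56 in replicate 1, and between -6.29 and -0.38 in replicate 2. The lowest value in each replicate, of Snhg20 and of Snhg15, was that of 1 cluster. In 11 of the 14 both medians were under -2. Snhg15 had 1 cluster in each replicate, at -5.97 and -6.29, and Snhg3 had medians of -5.60 and -5.43 over 2 and 3 clusters. Gas5, a growth arrest RNA that hosts many box C/D snoRNAs, had -3.78 and -2.67 over 5 and 5. In these 14 genes the clusters over a snoRNA gene, 37 in replicate 1 and 33 in replicate 2, had medians of -3.78 and -3.66. Their other clusters, 13 and 14, had medians of -1.96 and -1.47 and could be as low, such as the one of Snhg20 at -6.11 in replicate 1. That cluster lay over a miRNA gene, Mir6516, as did the Snhg20 clusters of replicate 2, at -5.09 and -5.50. A cluster of Snhg4, at -3.88 in replicate 1 and -4.02 in replicate 2, lay over the miRNA gene Mir1949. Over all lncRNA genes, 0 of 47 and 0 of 42 clusters over a snoRNA gene were enriched. Enriched shares were 3.81% and 2.85% over all lncRNA clusters and 6.31% and 4.71% over all clusters. At such shares, few would be enriched among so small a number of clusters. Clusters over a snoRNA gene made up 34 of the 63 lncRNA clusters at a fold of -3 or lower in replicate 1 and 23 of 51 in replicate 2. Such low folds were 0.923% and 0.738% of lncRNA clusters, against 0.781% and 0.597% of all clusters. Snhg11 went the other way, with 6 and 2 clusters at medians of 3.52 and 3.71, all reproducible ones lying in a 294 nt block at chr2:158383219-158383512.

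**Figure D3:**
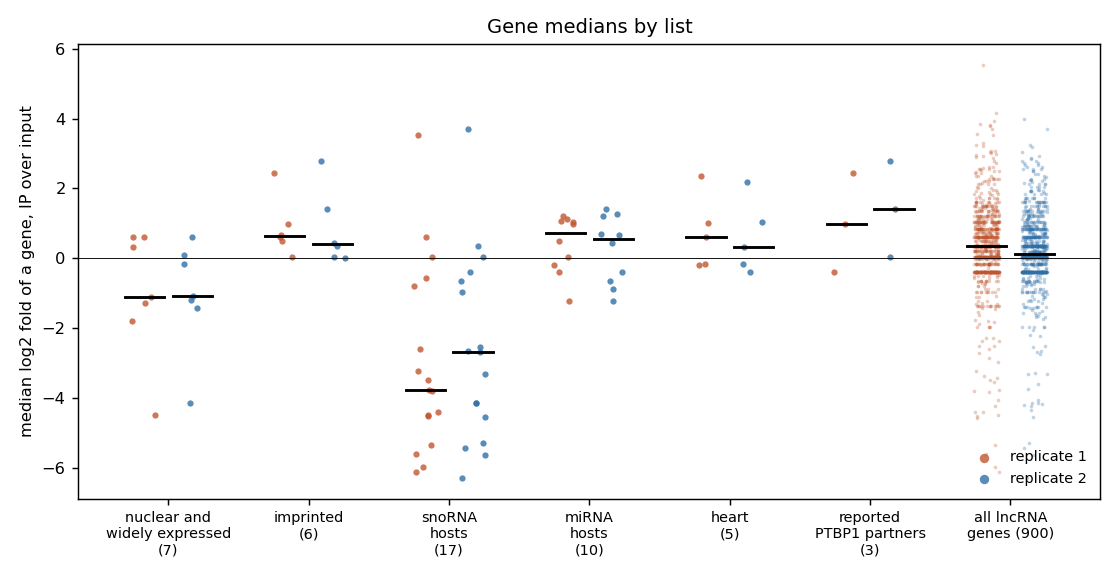
Median log2 fold of each lncRNA gene, in replicate 1 and replicate 2, grouped by list, with all 900 lncRNA genes at the right and bars at the median of each group. The snoRNA hosts reach -6.29 in replicate 2, the value of the 1 cluster of Snhg15. The imprinted lncRNAs all lie above 0 in both replicates, as do 465 of all 900 genes, with Airn counted outside protein-coding spans only.

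Many of the highest folds were in lncRNAs known only by a systematic name. Gm36535, on chr5:111793367-111807299, had the highest share of enriched clusters among the genes with 10 or more clusters in each replicate: 12 of 18 in replicate 1 and 12 of 17 in replicate 2. Its medians were 3.94 and 3.98, with folds of 1.69 to 7.34 in replicate 1 and 0.49 to 5.63 in replicate 2. All its clusters lay on the plus strand. A run of 5 joined clusters covered 428 nt at 111798253 to 111798680, where one cluster reached 7.34 and 5.13 and another 6.32 and 5.63. The protein-coding gene nearest to Gm36535, Mn1, is 336337 nt away from its span.

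Gm4258, on chromosome 1, had a site at chr1:137931130-137931406 with folds of 6.18 and 6.06 and −log10 p of 26.1 and 23.8, and the gene lies 99839 nt from Ptprc. Gm40287 had 5.91 and 5.62 at chr12:15612926-15613137, and Gm36372 had 5.39 and 5.16 at chr12:16212325-16212471. 2210408F21Rik had 6.48 and 5.05 at chr6:31269660-31269865, with 5 reproducible clusters in each replicate. Gm35041 had 6.37 and 5.01 at chr12:76985941-76986074. Gm38863, on chr6:93194131-93238995, had 8 reproducible clusters in each replicate of 41 and 44, with medians of 1.36 and 1.32. 2610307P16Rik, near Sox4, had the most clusters of all, 273 and 298, with 6 reproducible in each and a best pair of 4.64 and 4.59. Of the other genes named for their folds, Gm13986 had 4.86 and 4.87 and Gm33023 had 4.55 and 4.51. The span of Gm13986 lies 674 nt from Thbs1, but this cluster lies 127602 nt from any protein-coding span. The span of Gm33023 lies 52 nt from Rrad, and its cluster lies 2455 nt from any protein-coding span. 2610035D17Rik, 9530026P05Rik, 4833422C13Rik and A530020G20Rik had lower folds of 4.76, 4.49, 4.45 and 4.44. High medians did not always come with strong sites: Gm46606 had medians of 1.66 and 1.62 with 0 enriched clusters, and A330023F24Rik had 1.47 and 1.95 with 1 enriched cluster in replicate 1 and 0 in replicate 2.

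**Figure D4:**
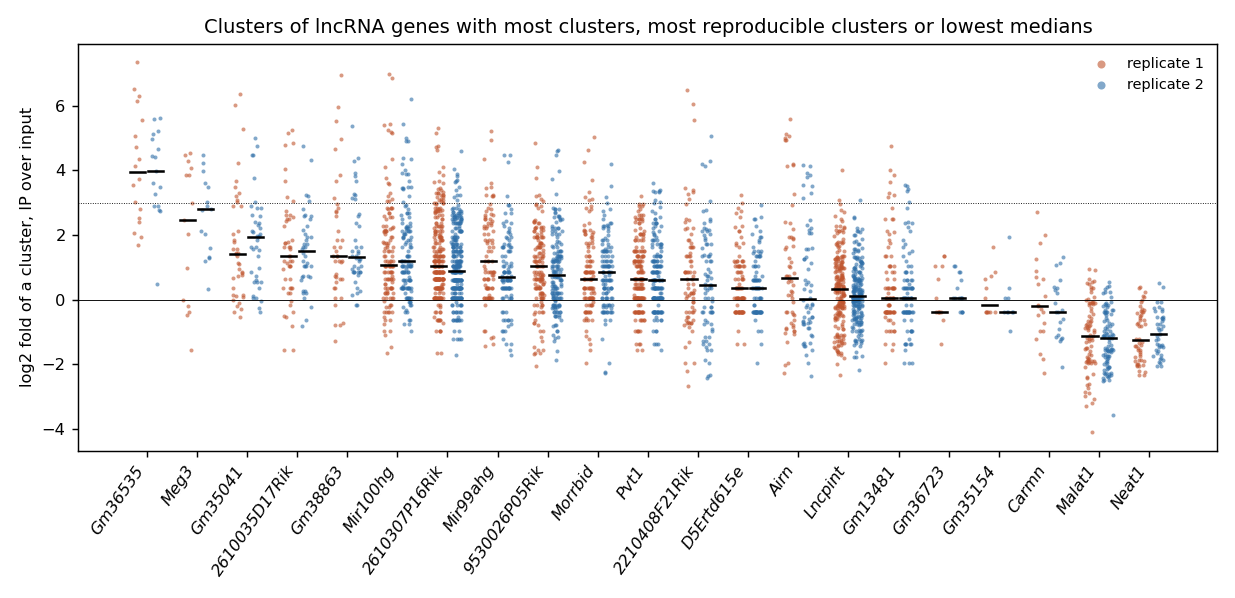
Log2 fold of every cluster (points) with the median (bars) in lncRNA genes with most clusters, most reproducible clusters or the lowest medians, replicate 1 left of replicate 2 in each gene; the dotted line marks 3. Gm36535, with medians of 3.94 and 3.98, stands above the other genes, and Malat1 and Neat1 stand lowest.

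Position and strand were described for the clusters of genes whose strand is known. Reproducible clusters lay at a median of 43.2% of the way into the span in replicate 1 and 42.3% in replicate 2, close to the clusters that were not enriched, at 43.0% and 42.3%. In the first 10% there were 12.7% and 11.6% of reproducible clusters, against 12.1% of those not enriched in replicate 1. The last 10% of the span held 0 of 118 reproducible clusters in replicate 1 and 0 of 112 in replicate 2. It held 5.57% of clusters not enriched in replicate 1 and 6.20% in replicate 2, a difference that was not tested. The count of 0 rests on where the edge is set. In replicate 1, the block of 5 joined Mir100hg clusters lay 89.3% to 89.4% into the span. Reproducible clusters of the 2 replicates overlap each other, so the 2 counts are not independent. On the strand opposite to the gene there were 229 clusters in replicate 1 and 232 in replicate 2, and 6 in each were reproducible. Those of Gm41331 all lay on the minus strand, 13 in each replicate, though the gene is annotated on the plus strand.

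Within 5000 nt of a protein-coding span 2.93% of lncRNA clusters in replicate 1 and 2.20% in replicate 2 were enriched, and farther away 3.96% and 2.96%. Where the protein-coding span within 5000 nt was on the same strand, 5 of 145 (3.45%) and 5 of 121 (4.13%) were enriched. Over all autosomes 2.37% and 2.20% of lncRNA clusters were reproducible, and 3.81% and 2.85% enriched. Chromosome 6 had 22 reproducible of 863 lncRNA clusters in replicate 1 and 21 of 873 in replicate 2, and chromosome 12 had 16 of 350 and 15 of 368. Chromosome 17 had 18 of 337 and 13 of 336, of which Airn held 10 and 7. Chromosome 19 had 308 and 319 lncRNA clusters with 0 enriched. Malat1 held 82 and 96 of these, and Neat1 52 and 43. Clusters lay in all 8 cardiomyocyte, 6 fibroblast, 4 endothelial, 4 pericyte and smooth muscle and 4 macrophage marker genes. They also lay in 2 of 3 neuronal ones, where Rbfox3 had none. Cardiomyocyte markers held 911 and 957 clusters, fibroblast 116 and 115, and endothelial 210 and 223. Pericyte and smooth muscle markers held 108 and 131, macrophage 136 and 130, and neuronal 7 and 4.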

How the data were processed

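Clusters were deposited by the authors in a separate table for each replicate. Per the file headers, the columns are position, strand, log2 fold (taken as immunoprecipitate over its own size-matched input) and −log10 p-value. The deposited −log10 p-value stops at 400 and is 0 for every negative log2 fold. Per the submitters' processing notes, the software was STAR 2.6.0c, cutadapt 2.7 and UMI-tools 0.5.1 and the builds mm10 and hg38, with no roles stated; for the cluster caller, its test and the library scaling the sources used here give nothing. Per the labels' protocols, each sample used about 66 mg of frozen tissue, 254 nm light at 400 mJ/cm2, and a membrane cut from 50 to 125 kDa. Without read counts, single folds carry no interval.

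Clusters were placed by midpoint in the RefSeq gene spans of GRCm38.p6, the assembly of mm10, with Python 3.11.15, pandas 2.3.3 and scipy 1.17.1. The gene table has no exons, so exon and intron positions were not analysed here. Gene strands came from the RefSeq promoter table, and 983 of the 1245 genes matched it. The overlap counting was tested on simulated clusters. Replicates shared 5 lncRNA clusters with identical coordinates, none with an identical fold. The lncRNA genes named were the 15 with the highest lower fold of a reproducible pair, the 10 with most reproducible clusters, the 10 with most clusters, the 5 highest and 5 lowest medians, and the members of 6 lists. The genes, lists and thresholds were chosen with earlier results of these data known. Alternatives covered thresholds, overlap, placement, distance, single replicates and the leading gene.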

Additional observations from a re-analysis of the deposited data

How the results depend on the processing

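No paired analysis was possible because the tables hold 1 immunoprecipitate-over-input comparison per replicate and no value per sample. Under 35 alternatives the values stayed close to those reported (counts within 1.5 times), and under 13 they moved further. Most of the values are counts, which cannot change direction. The enriched share of lncRNA clusters against that of all clusters was not recomputed under the alternatives. With a log2 fold of at least 4 in place of 3, the enriched clusters were 130 in replicate 1 and 75 in replicate 2, the reproducible ones 53 and the genes with one 23. With a fold of at least 1, the enriched clusters of replicate 2 were 340 and the reproducible ones 301. Counting enrichment in a single replicate gave 197 to 260 clusters and 75 to 102 genes. Joining touching clusters gave 107, and asking for at least 2 reproducible clusters gave 31 genes. The Spearman correlation was 0.750. The median of gene medians was 0.12 in replicate 2, and without 2610307P16Rik, the gene with most clusters, the replicate 2 median was 0.30. The −log10 p-value and fold thresholds act on values whose depth is unknown, many clusters share the same few folds, and there are 2 replicates, so the counts measure recurrence between these lysates only.
In alternatives chosen after seeing the data, leaving out clusters on the strand opposite to the gene gave 251 enriched clusters in replicate 1, 188 in replicate 2 and 156 reproducible ones.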

Other observations

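Several lncRNA genes had their clusters on the strand opposite to the annotation. Of 547 genes with a known strand and at least 3 clusters, 55 had clusters on the opposite strand, and in 30 of these 55 all were. Gm39772, on chromosome 2, had 14 and 16 such clusters and no other, with medians of 1.38 and 0.67. Gm32250, on chromosome 1, had 11 and 14, with medians of 1.74 and 0.98. Gm17382, a minus-strand gene 15189 nt from the cardiac transcription factor gene Nkx2-5, had 14 of 20 clusters in replicate 1 and 14 of 24 in replicate 2 on the plus strand.

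Hdnr, which lies downstream of Hand2, and Chaserr, which lies upstream of Chd2, were chosen after their values were seen. Hdnr had 7 and 10 clusters with medians of 2.88 and 2.51, 3 reproducible ones in each replicate and a best pair of 4.13 and 4.26. Chaserr had a best pair of 4.23 and 4.18.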
